A study of Mus musculus with 6 samples.

Results

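The interferon system was described across 42 genes in the kidneys of 15-day-old mouse pups. The members were taken by symbol from the count tables, which list 24422 symbols, and comprised the type I and type II interferon receptors, their Janus kinases, a STAT and the interferon regulatory factors (IRFs), and classic interferon-induced genes including the Ifitm family. All 42 were found. Kidneys of wild type C57BL/6 pups whose dams ate chow with 2 to 6 ppm iron (FeD, n = 3) were compared with those of pups whose dams ate chow with 220 ppm iron (control, n = 3). The females went on their diets at 8 weeks of age, were mated after 1 month by the labels (the study's methods give a shorter period), and stayed on them until postnatal day 15 (P15), so that both groups were studied at the same age. No sample carried a transgene or a deletion, and the labels name the kidneys as biological replicates without naming litters, so that litter and diet cannot be told apart.

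Poly-A RNA of each kidney was sequenced, and reads were counted per gene. Totals ranged from 16189041 to 20374327 reads in control and from 13732173 to 20853293 in FeD kidneys, at which a count of 0 allows up to 0.144 to 0.218 CPM (counts scaled to library size). The labels give no sex, but Xist was abundant in control 1, control 2 and FeD 3, and Y-linked transcripts in control 3, FeD 1 and FeD 2, so that the sexes were unequally split between the groups. Of 15145 genes tested, 45.7% differed between the groups at an adjusted P under 0.05, which is the background against which the members' counts stand.

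Interferons are secreted proteins that warn cells of infection. Type I interferons bind a receptor made of IFNAR1 and IFNAR2, and interferon gamma one made of IFNGR1 and IFNGR2. The receptors carry Janus kinases, which phosphorylate STAT proteins. A complex that contains STAT2 and IRF9 binds the interferon-stimulated response element (ISRE), while STAT pairs bind the gamma-activated site (GAS), and the genes so switched on block viral entry, RNA and protein synthesis, present antigen or damp the response. Many of these genes are also expressed at a low basal level in uninfected tissue. The kidney holds them in its epithelium, vessels and resident macrophages, and a bulk sample sums all of these.

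The ISRE was looked for in the promoters of the members, since it is the sequence by which many of them are known as a group. The RefSeq windows (mouse build GRCm38.p6, 250 bases before to 50 after each start) covered 38 members, but not Usp18, Mx1, Mx2 or Iigp1, in 45 windows. The ISRE core, 2 copies of GAAA with any 2 bases between them, read on either strand, occurred in 17 of the 45 windows (37.8%) and in 1131 of 32851 windows of all genes (3.44%). The GAS core, TTC and GAA with any 3 bases between them, which reads the same on both strands, occurred in 14 of the 45 (31.1%) and in 8.3% of all windows, and the letters of the cores may overlap. Counted by gene, the ISRE core was present for 13 of the 22 members with a window that fell in FeD kidneys, for 1 of the 7 that rose and for 3 of the 9 that did not pass the test. The GAS core was present for 6 of the 22, 2 of the 7 and 6 of the 9. The windows below, all upstream of the start and written on the strand of the gene, show the ISRE core nearest the start in 5 antiviral effectors and 2 GTPases that fell, and in Irf2, the one member with a core that rose. They were chosen after the values were seen, as examples of the groups described next. Capitals mark the core, which reads as GAAA blocks on the gene's strand in some windows and as TTTC blocks, its complement, in others.
Isg15, chr4:156200855-156200914, minus strand: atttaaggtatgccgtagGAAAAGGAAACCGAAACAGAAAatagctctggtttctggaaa
Bst2, chr8:71537567-71537626, minus strand: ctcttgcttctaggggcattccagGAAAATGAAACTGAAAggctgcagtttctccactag
Rsad2, chr12:26456543-26456602, minus strand: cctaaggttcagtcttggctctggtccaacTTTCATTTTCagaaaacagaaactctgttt
Ifit1, chr19:34640774-34640833, plus strand: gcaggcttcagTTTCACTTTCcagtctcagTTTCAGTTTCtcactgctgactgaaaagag
Ifit3, chr19:34583377-34583436, plus strand: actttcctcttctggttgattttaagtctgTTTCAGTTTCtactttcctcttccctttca
Gbp2, chr3:142620574-142620633, plus strand: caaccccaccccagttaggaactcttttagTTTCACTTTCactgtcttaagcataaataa
Igtp, chr11:58199492-58199551, plus strand: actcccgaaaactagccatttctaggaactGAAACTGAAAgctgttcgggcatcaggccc
Irf2, chr8:46739495-46739554, plus strand: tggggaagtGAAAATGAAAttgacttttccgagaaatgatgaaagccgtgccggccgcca
In Isg15 and Bst2 the capitals cover 3 and 2 overlapping copies, and in Ifit1 2 separate copies. In Bst2 the GAS core, whose letters are not marked, overlaps the first copy. A match is a description of letters and does not show that a factor bound there. Ifit2, Ifitm1 and Ifngr1, which rose, held no ISRE core in their windows, nor did Irf7, Oasl2, Xaf1 and Ifitm7, which fell, and that says only that these letters are not in these windows.

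In FeD kidneys most interferon-induced genes were lower. Of 9 STAT and IRF factors 5 were lower (55.6%) and 2 higher (22.2%, near the share of all tested genes). Of 4 receptor chains, a small list, 2 were higher (50%; 22.4% of all tested genes) and 1 lower (25%; 23.3% of all tested genes). Of the 42 members 41 passed the filter on low counts, and Mx1, an antiviral GTPase with raw counts of 11, 8 and 3 in control and 2, 3 and 4 in FeD kidneys, was not tested. Among the 41, 24 were lower (58.5%; 23.3% of all tested genes), 7 were higher (17.1%; 22.4% of all tested genes) and 10 did not pass. At least 2-fold changes were found for 12 lower members (5.69% of all tested genes) and 3 higher ones (4.34% of all tested genes), Ifngr1, Ifitm1 and Irf4. The 24 and the 12 lower members include Ifitm7 and Oas1a, which would not have passed the filter on low counts without the control kidneys. Every FeD kidney lay below every control kidney for 24 members (29.7% of all tested genes) and above for 6 (28.4% of all tested genes). The median log2 fold change of the 41 was -0.44, and that of all tested genes was -0.0018. The count of higher members fell to 4, 4 and 3 without control 1, control 2 and control 3. Adjusted P values come from edgeR (quasi-likelihood, all 15145 genes, Benjamini-Hochberg), values are normalized counts, and errors of log2 fold changes are standard errors (SE).

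**Figure D1:**
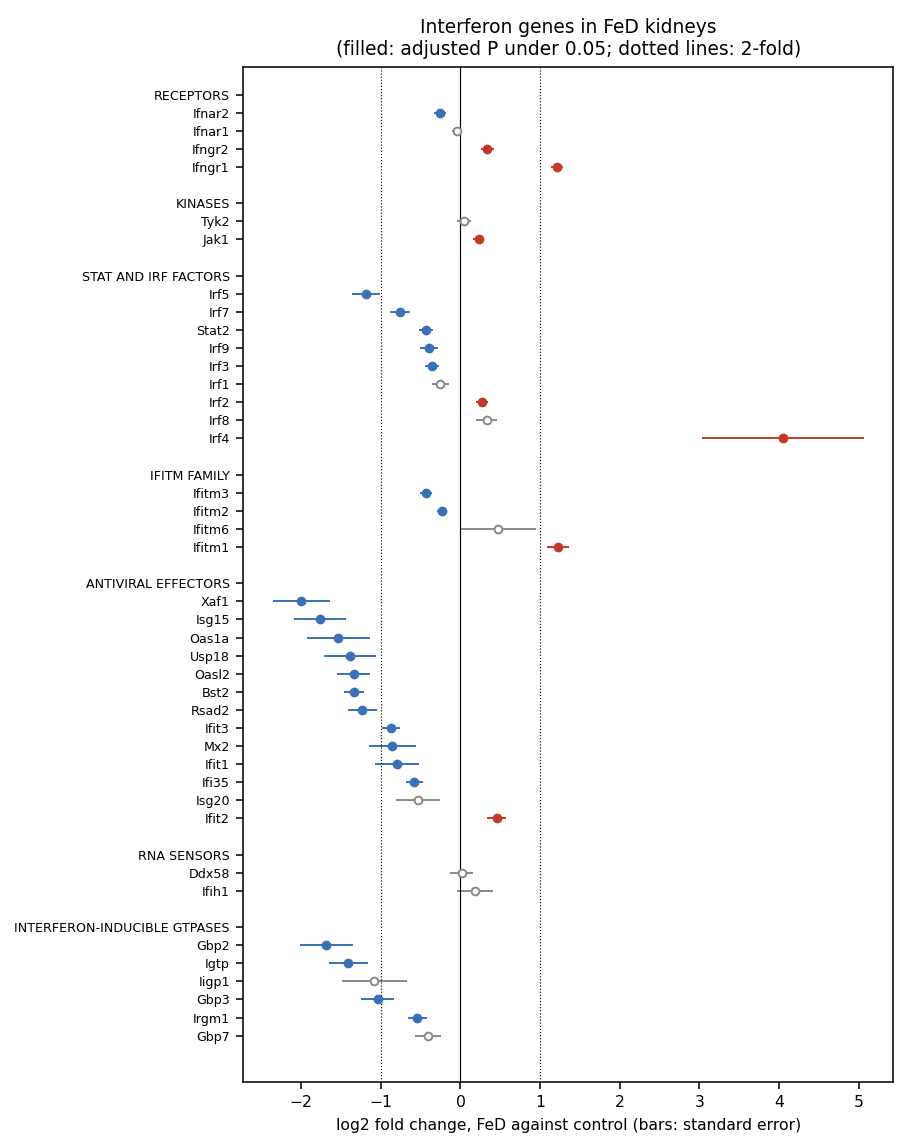
Log2 fold change of FeD against control kidneys (x axis) for 40 tested members grouped by role (y axis), with bars for the standard error. Filled points passed an adjusted P of 0.05 (red higher, blue lower), open points did not, and Ifitm7, which had no count in FeD kidneys, and the untested Mx1 are not drawn. The antiviral effectors and GTPases lie mostly left of 0, with Xaf1 at -2.00, while Irf4 lies far to the right with a wide bar.

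At the receptors, the interferon gamma receptor was more expressed in FeD kidneys, while the type I chains were lower or did not pass the test. Ifngr1, the ligand-binding chain for interferon gamma, had 831.5, 871.1 and 810.0 normalized counts in control and 1973, 2093 and 1750 in FeD kidneys. All FeD kidneys lay far above the controls, a log2 fold change of 1.21 ± 0.08 (2.31-fold, adjusted P = 3.5e-05). Ifngr2, its signaling partner, had 725.1, 649.7 and 724.6 against 893.3, 830.1 and 930.1, also without overlap, and rose by 0.34 ± 0.08 (adjusted P = 0.011; 0.061 without control 2). Ifnar2, a chain of the type I receptor, had 811.4, 867.8 and 813.6 against 675.2, 726.2 and 686.6 and fell by 0.26 ± 0.07 on the log2 scale (adjusted P = 0.023), with 14.6% of its exon bases shared with Il10rb on the same strand. The call for Ifnar2 was lost without any 1 control kidney and without FeD 1 (adjusted P up to 0.094). For Ifnar1, the other type I chain, the means were 1926 ± 38.3 and 1866 ± 106 (SD, n = 3), and it did not pass (-0.05 on the log2 scale, edgeR adjusted P = 0.57). Ifnar1, Ifnar2 and Ifngr2 lie within 192387 bases on chromosome 16 (chr16:91373028-91565414, mm9), while Ifngr1 is on chromosome 10 (chr10:19311755-19330035, mm9).

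On a per-length scale, counts per kilobase of exon divided by the library size as in CPM, the order of the receptor chains changed. In control kidneys Ifnar1 led with 18.3 ± 0.36, followed by Ifngr1 with 16.5 ± 0.61, and Ifnar2 (11.9 ± 0.46) and Ifngr2 (11.8 ± 0.73) lay within their spread of each other. In FeD kidneys Ifngr1 led with 38.1 ± 3.4, ahead of Ifnar1 at 17.8 ± 1.0, Ifngr2 at 14.9 ± 0.85 and Ifnar2 at 9.99 ± 0.38. The ratio of Ifngr1 to Ifngr2 raw counts within a kidney was 1.15, 1.34 and 1.12 in control and 2.21, 2.52 and 1.88 in FeD kidneys. These groups did not overlap, and the exact two-sided permutation test gave P = 0.1 (adjusted 0.1 over 6 ratios), the smallest value that 3 against 3 kidneys allow. The other 5 ratios, 3 of which are not described further (Ifnar1 to Ifnar2, Ifit2 to Ifit1 and Ifitm2 to Ifitm3), gave the same P.

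Jak1, the kinase shared by both receptors, had 3200, 2987 and 2953 against 3336, 3537 and 3829 normalized counts. It rose slightly, by 0.23 ± 0.07 (adjusted P = 0.030), a call that was lost when any 1 control kidney was left out (adjusted P up to 0.118). Tyk2, the kinase of IFNAR1, did not pass, with 670.5 ± 53.9 against 694.0 ± 31.5 (adjusted P = 0.67).

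Stat2 and Irf9, which act together at the ISRE, were both lower in FeD kidneys. Stat2 had 610.9, 667.4 and 565.2 in control and 441.1, 467.7 and 453.4 in FeD kidneys, and fell by 0.44 ± 0.09 on the log2 scale (adjusted P = 0.0044). Irf9, the DNA-binding subunit, had 591.8, 584.4 and 487.8 against 443.1, 371.5 and 450.0 and fell by 0.39 ± 0.11 (adjusted P = 0.021), a call lost without control 1, control 2 or FeD 2 (adjusted P up to 0.078). Neither gene's groups overlapped. Control 2 was the highest kidney for Stat2 and control 1 for Irf9, and the FeD kidneys lay close together for Stat2.

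The IRFs moved in both directions. Irf7, which is itself interferon-induced and drives type I interferon genes, had 240.7, 270.1 and 213.6 against 149.1, 133.8 and 145.1 and fell by 0.76 ± 0.13 (adjusted P = 0.0021). Irf5, a factor of macrophages and other myeloid cells, had 124.7, 112.9 and 154.9 against 57.02, 54.56 and 60.45 and fell by 1.19 ± 0.18 (adjusted P = 0.0012), with 14.2% of its exon bases overlapping Tnpo3 on the opposite strand. Irf3, the constitutively expressed factor activated by viral nucleic acid, had 1404, 1366 and 1444 against 1224, 954.8 and 1108 and fell by 0.36 ± 0.09 (adjusted P = 0.013; 0.055 without control 3). These groups did not overlap, and for Irf5 and Irf7 the FeD kidneys were closer to each other than the controls were.

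Irf2, a factor that competes with Irf1 for its sites and whose promoter core is shown above, had 522.7, 516.9 and 489.6 against 584.2, 622.3 and 631.3 and rose by 0.27 ± 0.08 (adjusted P = 0.022), a call lost without any 1 control kidney (adjusted P up to 0.090). Irf1 had 508.9 ± 40.7 against 426.1 ± 50.6, and although every FeD kidney was below every control it missed the threshold (log2 fold change -0.25, unadjusted P = 0.050, adjusted P = 0.093). Irf8, a factor of the macrophage and dendritic cell lineages, had 295.2 ± 43.5 against 370.5 ± 41.2 and also missed it (log2 fold change 0.33, unadjusted P = 0.039, adjusted P = 0.077), though it passed without control 2 or without FeD 3.

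Irf4, a factor of activated lymphocytes, macrophages and dendritic cells, stood apart. It had 20.14, 28.78 and 15.13 normalized counts in control and 668.2, 363.7 and 23.32 in FeD kidneys. FeD 1 and FeD 2 were far above all other kidneys, whereas FeD 3 lay within the control range. The fitted log2 fold change was 4.05 ± 1.01 (adjusted P = 0.012), but this call was lost with limma-voom, without control 3 and with sex as a term, at an adjusted P of up to 0.235. The value itself was 3.17 without FeD 1, 4.63 without FeD 3 and 2.74 with sex as a term. The kidneys with high Irf4 were the FeD kidneys with Y-linked transcripts, and the control kidney with such transcripts, control 3, had the lowest value of all. The part of sex in this value was not tested beyond that term.

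The Ifitm family encodes small membrane proteins that stop enveloped viruses from fusing with the cell, and its members split 3 ways. Ifitm1 had 492.0, 443.8 and 389.9 against 1091, 847.0 and 1160 and rose by 1.23 ± 0.14 (2.34-fold, adjusted P = 0.00031). Ifitm3, the best known restriction factor of the family, had 1065, 1108 and 1045 against 765.3, 780.7 and 835.1 and fell by 0.43 ± 0.07 (adjusted P = 0.0017). Ifitm2 had 2118, 2017 and 2158 against 1749, 1680 and 1922 and fell by 0.23 ± 0.07 (adjusted P = 0.022), a call lost without control 1, control 3, FeD 1 or FeD 2 (adjusted P up to 0.088). For all of these the groups did not overlap, although they lie with Ifitm6 within 62056 bases of chromosome 7 (chr7:148140736-148202791, mm9). Ifitm6 was barely expressed, at 8.96 ± 2.48 against 12.72 ± 7.19, and did not pass (adjusted P = 0.45). The ratio of Ifitm1 to Ifitm3 raw counts was 0.462, 0.401 and 0.373 in control and 1.43, 1.08 and 1.39 in FeD kidneys (exact two-sided permutation P = 0.1, the smallest possible). Per length, Ifitm2 was the most abundant of the family in both groups (180 ± 6.2 in control and 153 ± 11 in FeD kidneys, the same per-length scale), followed by Ifitm3 (88.5 ± 2.7 and 65.5 ± 3.0) and Ifitm1 (22.6 ± 2.6 and 52.8 ± 8.4).

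Ifitm7 was detected in every control kidney and in no FeD kidney. It had 82, 55 and 106 raw counts in control kidneys and 0, 0 and 0 in FeD kidneys. Against a floor of 3 counts per library it was at least 24.6-fold lower, from 77.96 ± 16.7 normalized counts in control. It passed the filter on low counts only through the control kidneys, so that its adjusted P (0.00014) adds nothing to these counts. Of 12647 genes with at least 50 counts in every control kidney, 1 gene had at most 1 count in every FeD kidney, and it was Ifitm7. No gene of 12329 showed the reverse. Ifitm7 lies apart from the rest of its family, on chromosome 16 (chr16:13981795-13986948, minus strand, mm9). Of its exon bases 26.5% overlap 2900011O08Rik on the opposite strand, which had 20, 18 and 33 against 1, 12 and 0 raw counts (log2 fold change -2.26 ± 0.88, adjusted P = 0.068), and since it is not stated whether the counting used strand, reads of the overlap cannot be assigned. The next gene, Mpv17l, 32083 bases away, was not lost, with 3190 ± 200 against 4343 ± 1246 normalized counts (adjusted P = 0.066).

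**Figure D2:**
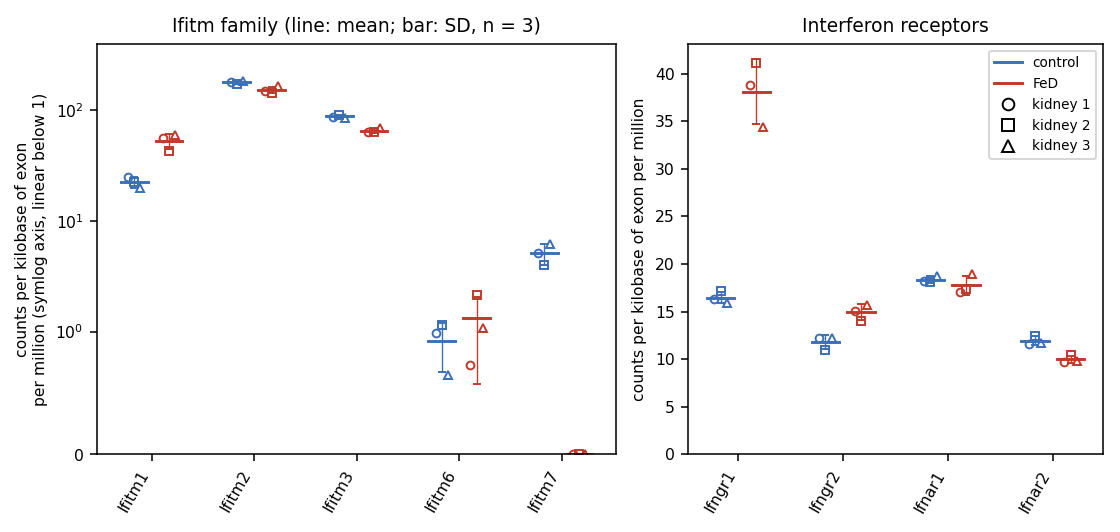
Per-length levels (y axes, counts per kilobase of exon, scaled to library size as in CPM, left with a symmetric log axis that is linear below 1) in each kidney for the Ifitm family (left) and the interferon receptor chains (right). Symbols are kidneys 1 to 3 of each group, lines are means and bars are SD (n = 3), with control in blue and FeD in red. Ifitm1 and Ifngr1 are higher in all FeD kidneys, and Ifitm7 is at 0 in all FeD kidneys against 5.12 ± 1.1 in control.

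The antiviral effectors had the highest share of lower calls among the roles. Of 13 tested, 11 were lower (84.6%; 23.3% of all tested genes), 7 of them by at least 2-fold (5.69% of all tested genes). A further 1 was higher and 1 did not pass, and the median log2 fold change was -1.23. Xaf1, an interferon-induced promoter of cell death, fell most, from 597.5, 592.2 and 318.7 in control to 85.03, 204.0 and 95.86 in FeD kidneys, a log2 fold change of -2.00 ± 0.36 (adjusted P = 0.0026). Its highest FeD kidney, FeD 2, was still below its lowest control, control 3.

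The ubiquitin-like modifier Isg15 and its protease Usp18, which also blocks the type I receptor, fell together. Isg15 had 112.2, 115.1 and 87.23 against 40.01, 14.29 and 36.27 (-1.76 ± 0.33, adjusted P = 0.0032). Usp18 had 101.7, 106.3 and 54.30 against 30.01, 24.68 and 44.05 (-1.38 ± 0.33, adjusted P = 0.0095). In both, FeD 2 was the lowest kidney, and for Usp18 control 3 came close to FeD 3.

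Further effectors were lower. Bst2, or tetherin, which holds budding virions to the cell, had 476.7, 421.7 and 412.1 against 187.1, 184.5 and 147.7 and gave the lowest adjusted P of the effectors (-1.34 ± 0.12, adjusted P = 0.00013). Rsad2, or viperin, a radical enzyme with an iron-sulfur cluster, had 2056, 2173 and 1843 against 710.2, 706.7 and 1154 (-1.23 ± 0.18, adjusted P = 0.0011). FeD 3 was the highest of its FeD kidneys but remained below all controls. Oasl2, an oligoadenylate synthetase-like protein, had 346.2, 316.6 and 205.6 against 103.0, 106.5 and 131.3 (-1.34 ± 0.21, adjusted P = 0.0014). Oas1a, a synthetase of the RNase L pathway, had 41.24, 30.99 and 26.70 against 18.01, 9.09 and 6.91 (-1.53 ± 0.39, adjusted P = 0.013; 0.053 without control 1). Its raw counts were 43, 28 and 30 against 18, 7 and 8. Too few FeD kidneys reached the filter for Oas1a to pass it without the controls, so that its P value adds little. Of its 100-base windows 34.9% also occur in Oas1g, so that the count of uniquely mapped reads may miss part of its RNA. Ifi35, whose protein forms cytoplasmic complexes, fell less, with 361.6, 392.9 and 375.6 against 283.1, 237.7 and 234.9 (-0.58 ± 0.10, adjusted P = 0.0028), and overlaps Gm11626 on the opposite strand over 16.8% of its exon bases.

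Low counts limited the others. Mx2, a dynamin-like antiviral GTPase, had 47.95, 52.02 and 30.26 against 28.01, 24.68 and 19 (-0.86 ± 0.30, adjusted P = 0.043), and its call was lost under 9 of 14 alternatives, among them leaving out any kidney but control 3 (adjusted P 0.030 to 0.152). Isg20, an exonuclease, had 53.0 ± 16.5 against 36.3 ± 4.23 and did not pass (-0.54, adjusted P = 0.14).

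Neighboring genes of the Ifit cluster moved in opposite directions. IFIT proteins bind viral RNA and block its translation, and Ifit1, Ifit2 and Ifit3 lie within 99316 bases of chromosome 19 (chr19:34625184-34724499, mm9). Ifit3 had 799.9, 839.0 and 806.5 against 455.2, 376.7 and 500.0 and fell by 0.87 ± 0.11 (adjusted P = 0.00050), with 31.7% of its 100-base windows shared with I830012O16Rik. Ifit1 had 124.7, 125.1 and 72.10 against 74.03, 45.47 and 63.91, with control 3 just below FeD 1, and fell by 0.80 ± 0.27 (adjusted P = 0.042), a call lost under 7 of 14 alternatives, among them leaving out any kidney but control 3 (adjusted P 0.019 to 0.140). Ifit2, the only effector that rose, had 638.8, 669.6 and 648.9 against 876.3, 748.3 and 1052 (0.45 ± 0.12, adjusted P = 0.016), a call lost when any 1 control kidney was left out (adjusted P up to 0.059). The ratio of Ifit2 to Ifit3 raw counts, which needs no scaling between libraries, was 0.799, 0.798 and 0.805 in control and 1.93, 1.99 and 2.10 in FeD kidneys. It was nearly constant within each group (SD 0.0036 and 0.091) and differed by 1.32 on the log2 scale (exact two-sided permutation P = 0.1, the smallest possible). The ISRE core shown above for Ifit1 and Ifit3 was absent from the Ifit2 windows, which held the GAS core.

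**Figure D3:**
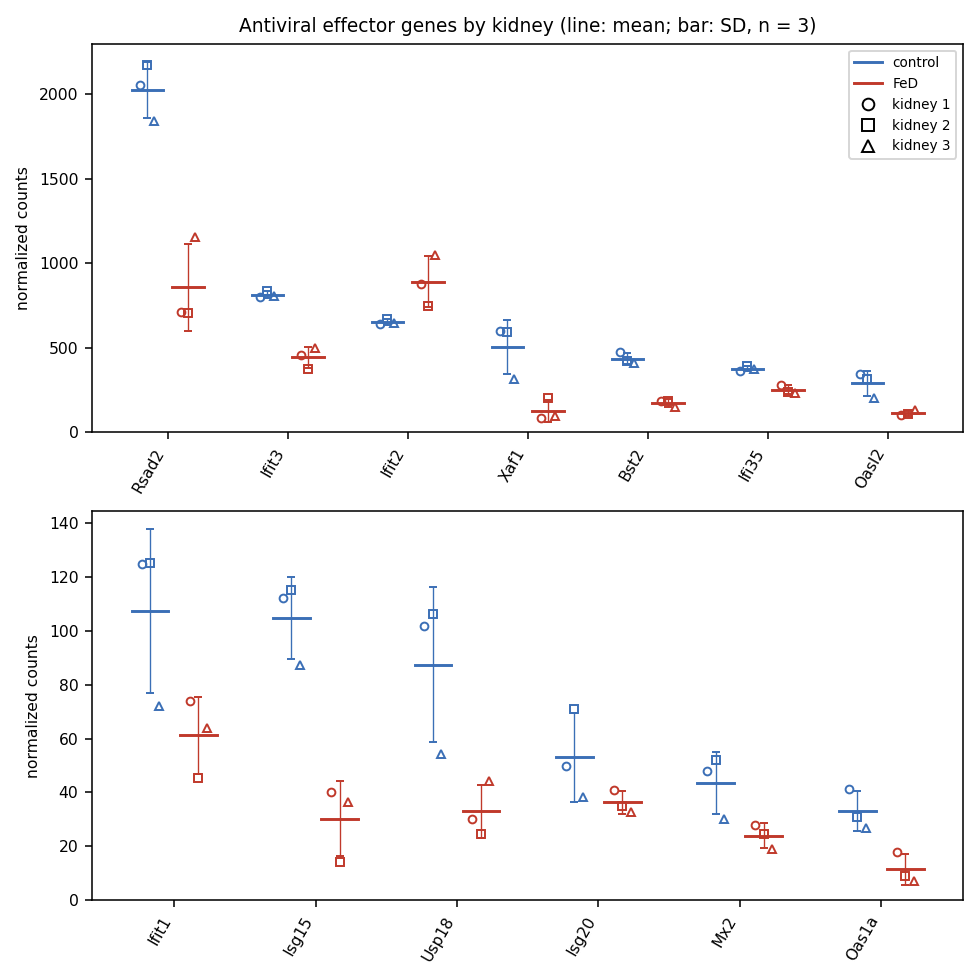
Normalized counts (y axes) of the 13 tested antiviral effectors in each kidney, split by level into an upper and a lower panel. Symbols are kidneys 1 to 3 of each group, lines are means and bars are SD (n = 3), with control in blue and FeD in red. Ifit2 is the effector with every FeD kidney above the controls, and Rsad2 falls from 2024 ± 167 to 856.9 ± 257.

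The 2 RNA sensors among the members did not pass in either direction. Ddx58, which encodes RIG-I, had 816.8 ± 20.7 against 824.2 ± 185 (log2 fold change 0.02, adjusted P = 0.94). Ifih1, which encodes MDA5, had 189.7 ± 54.9 against 215.7 ± 30.1 (0.19, adjusted P = 0.52). The direction of both changed under some alternatives. Dhx58, a related sensor outside the members, is given with the sensing genes.

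The interferon-inducible GTPases attack the vacuoles of intracellular pathogens and respond strongly to interferon gamma. They were lower for 4 of 6 (66.7%; 23.3% of all tested genes), 3 of them by at least 2-fold (5.69% of all tested genes), with a median of -1.06. Gbp2 had 276.2, 470.4 and 185.1 against 116.0, 76.64 and 94.14 (-1.68 ± 0.33, adjusted P = 0.0041). Igtp had 297.3, 492.5 and 245.7 against 128.0, 139.0 and 122.6 (-1.41 ± 0.25, adjusted P = 0.0024). Both had their ISRE core shown above. Gbp3, which lies with Gbp2 and Gbp7 within 107671 bases of chromosome 3 (chr3:142193302-142300972, mm9), had 269.5, 366.4 and 203.8 against 137.0, 127.3 and 142.5 (-1.04 ± 0.21, adjusted P = 0.0043). Irgm1, a regulator of the family, had 868.9, 982.9 and 720.1 against 607.2, 566.4 and 593.3 (-0.54 ± 0.12, adjusted P = 0.0063).

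The spread of the GTPases lay in the control group. Control 2 was the highest control for 6 of 6 and control 3 well below it, while the FeD kidneys were close together. Iigp1 had 258.0, 471.5 and 131.7 in control and 155.1, 145.5 and 105.4 in FeD kidneys, so that control 3 fell among the FeD kidneys, and it did not pass (-1.08 ± 0.41, adjusted P = 0.058, unadjusted P = 0.028). Without control 3 it passed, as it did with DESeq2 (adjusted P 0.010 to 0.220 over 14 alternatives). Gbp7 had 350.1 ± 81.2 against 264.3 ± 12.2 and did not pass (-0.40, adjusted P = 0.076, unadjusted P = 0.039), though it did without control 3. Relative to the control mean, the median GTPase lay at -0.10, 0.45 and -0.47 on the log2 scale in the control kidneys and at -0.96, -1.06 and -1.21 in the FeD kidneys. The median effector lay at 0.13, 0.13 and -0.30 in control and at -0.86, -1.24 and -0.98 in FeD kidneys. Control 3 was thus the lowest control kidney by both medians, and it is the control kidney with Y-linked transcripts. With sex as a term 28 of the 31 member calls were kept, all but Irf4, Ifit1 and Mx2.

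**Figure D4:**
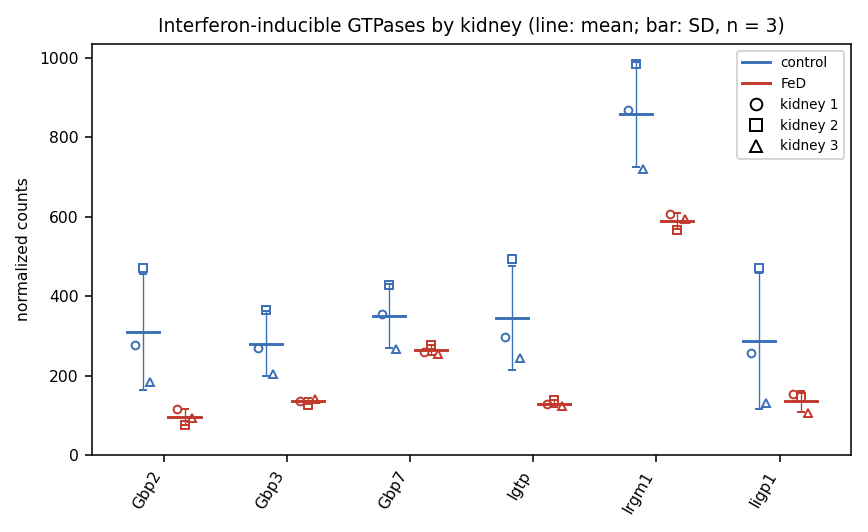
Normalized counts (y axis) of the 6 interferon-inducible GTPases in each kidney. Symbols are kidneys 1 to 3 of each group, lines are means and bars are SD (n = 3), with control in blue and FeD in red. Control 2 (blue square) is the highest kidney for each gene, and the FeD kidneys lie close together.

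The ligands themselves were all but undetected. Of 21 listed interferon genes, 16 had 0 counts in all 6 kidneys, and Ifnab, Ifne, Ifnk, Ifnz and Ifng had at most 4 counts in any kidney, in all 15 in control and 4 in FeD kidneys. None could be tested, and differences in ligand RNA were not detectable at this depth.

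A wider list of 124 pathway genes, none of them members, was tested in the same fit. Of 92 tested, 43 were lower, 10 were higher and 39 did not pass, with a median log2 fold change of -0.32. Thus 46.7% were lower and 10.9% higher, against 23.3% and 22.4% of all tested genes. The 43 lower genes include Cxcl9, Cxcl11, Slfn8, Tgtp2, Oas2, Ifi27l2a and Socs1, which would not have passed the filter on low counts without the control kidneys. The 10 higher genes include Ifitm10, which would not have passed it without the FeD kidneys. Among the other interferon-induced genes 31 of 57 were lower (54.4%; 23.3% of all tested genes) and 3 higher (5.26%; 22.4% of all tested genes), with a median of -0.38. The genes just named belong to this list, all but Socs1. The chemokines Cxcl11 and Cxcl9, which attract T cells, fell from 12, 16 and 12 to 1, 0 and 1 raw counts (adjusted P = 0.0014) and from 20, 22 and 13 to 2, 1 and 0 (adjusted P = 0.0021). Both passed the filter on low counts only through the control kidneys, so that their P values add nothing to these counts. Slfn8 fell by 1.99 ± 0.41 (adjusted P = 0.0051), from 30, 29 and 16 to 6, 5 and 7 raw counts. It too passed the filter only through the control kidneys, so that its P value adds nothing to its counts. Ifitm10 rose by 1.56 ± 0.31 (adjusted P = 0.0044), from low raw counts of 15, 10 and 11 to 29, 35 and 36. This gene passed the filter only through the FeD kidneys, so that its P value adds nothing to its counts. Plscr1, a phospholipid scramblase, rose by 0.41 ± 0.08 (adjusted P = 0.0033). Tor3a rose by 0.28 ± 0.09 (adjusted P = 0.029), a call lost without any 1 control kidney (adjusted P up to 0.111). The call was also lost with DESeq2 (0.0596) and with a block for the replicate number (0.0583).

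Genes of class I antigen presentation were lower for 7 of 13 (53.8%; 23.3% of all tested genes) and higher for 0 (22.4% of all tested genes), with a median of -0.51. Nlrc5, the transactivator of class I genes, had 56.59, 74.16 and 47.18 against 22.01, 24.68 and 12.09 (-1.61 ± 0.32, adjusted P = 0.0044). The immunoproteasome subunits Psmb9 (-1.54 ± 0.26, adjusted P = 0.0020) and Psmb8 (-0.94 ± 0.17, adjusted P = 0.0027) also fell. In all 3, every FeD kidney was below every control kidney and control 2 was the highest.

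Among 9 other receptors, STATs and regulators, a small list, 4 were higher (44.4%; 22.4% of all tested genes) and 3 lower (33.3%; 23.3% of all tested genes). Socs3, a feedback inhibitor of cytokine receptors, had 132.4, 107.4 and 139.8 against 335.1, 235.1 and 241.8 and rose by 1.09 ± 0.18 (adjusted P = 0.0016). Socs1, the inhibitor most tied to interferon signaling, fell by 1.21 ± 0.42 (adjusted P = 0.046). Its raw counts were low, at 30, 17 and 30 against 15, 3 and 14. Too few FeD kidneys reached the filter on low counts for Socs1 to pass it without the controls. Pias1, an inhibitor of STAT signaling, rose by 0.42 ± 0.07 (adjusted P = 0.0016), the interferon lambda receptor Ifnlr1 rose by 0.44 ± 0.13 (adjusted P = 0.025), and Il10rb, its second chain, fell by 0.32 ± 0.09 (adjusted P = 0.018). The calls for Ifnlr1 (without control 1, control 2 or FeD 1), Il10rb (the same kidneys) and Socs1 (any kidney but FeD 1) were lost when 1 kidney was left out, at an adjusted P of up to 0.0995, 0.0716 and 0.130. Socs1 also lost its call with DESeq2 (adjusted P = 0.105), with no filter on low counts (0.0758) and with sex as a term (0.0704). Ifnlr1 also lost its call with a block for the replicate number (0.0562). Of 13 sensing adaptors and kinases, 3 were higher (23.1%) and 2 lower (15.4%), shares near or below those of all tested genes. Tlr7 (0.77 ± 0.25, adjusted P = 0.035), Tbk1 (0.51 ± 0.09, adjusted P = 0.0025) and Myd88 (0.45 ± 0.10, adjusted P = 0.0073) rose, and Dhx58 (-0.90 ± 0.22, adjusted P = 0.011) and Tlr3 (-0.36 ± 0.10, adjusted P = 0.018) fell. Tlr7 lost its call without any kidney but FeD 2 (adjusted P up to 0.123). The same call was lost with DESeq2 (0.0910), with no filter on low counts (0.0512) and with a block for the replicate number (0.0581). Tlr3 lost its call without control 2, FeD 1 or FeD 2 (up to 0.0795) and Dhx58 without control 2 (0.0503).

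**Figure D5:**
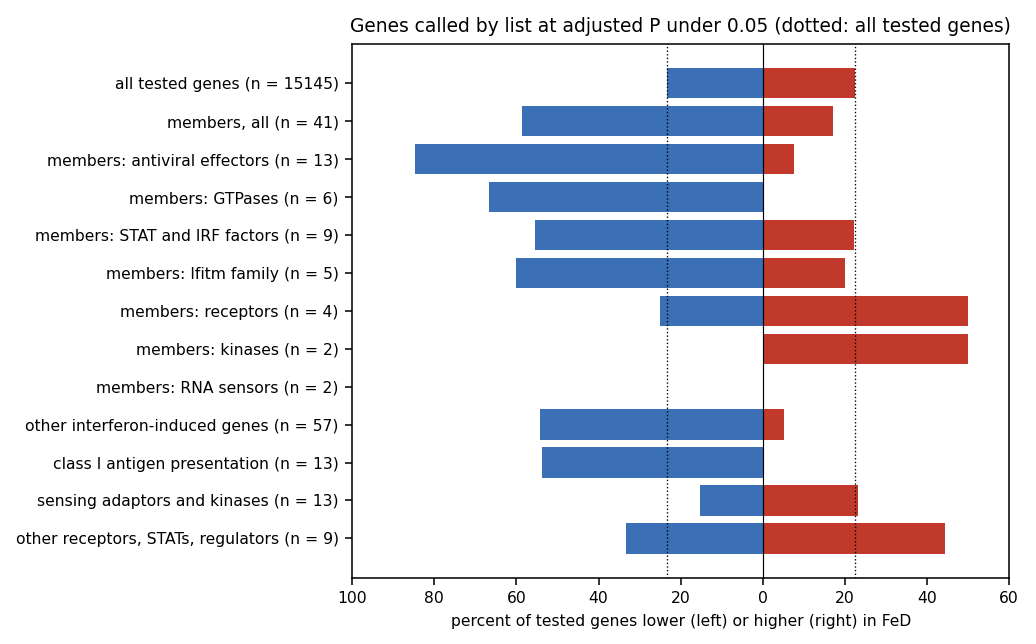
Percent of the tested genes of each list (y axis, n in parentheses) that were lower (blue, left) or higher (red, right) in FeD kidneys at an adjusted P under 0.05. Dotted lines mark all tested genes, at 23.3% lower and 22.4% higher. Antiviral effectors reach 84.6% lower and 7.69% higher, and the 2 RNA sensors among the members show no call.

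Markers of the cells that could carry these transcripts moved in different directions. In a bulk kidney, fewer cells of a type and less RNA per cell cannot be told apart. The counts of higher and lower markers stand beside 22.4% higher and 23.3% lower of all tested genes. Summed levels of 10 macrophage markers were 167 to 185 CPM in control and 176 to 205 in FeD kidneys, with 5 of the 10 higher and 1 lower, and 3 pan-leukocyte markers summed to 27.3 to 35.6 against 32.6 to 38.6 CPM. Dendritic cell markers (6) summed to 14.3 to 17.3 against 14.8 to 18.5 CPM, with 1 gene lower. Neutrophil markers (4) summed to 4.14 to 14.9 against 10.3 to 26.5 CPM, with 1 gene, Retnlg, higher (log2 fold change 2.31 ± 0.56, adjusted P = 0.011). Retnlg had 2, 6 and 3 against 13, 23 and 16 raw counts. It passed the filter on low counts only through the FeD kidneys, so that its P value adds nothing to these counts. The 7 lymphocyte markers summed to 2.49 to 5.95 CPM in control and 0.435 to 0.654 CPM in FeD kidneys. Only 1 of them, Cd79a, was tested, and it was lower, with 16, 37 and 23 against 5, 3 and 6 raw counts. Cd79a passed the filter on low counts only through the control kidneys, so that its call adds nothing to these counts. Endothelial markers summed to 1460 to 1480 CPM in control and 949 to 1325 CPM in FeD kidneys, 6 of 8 being lower and 1 higher. Proximal tubule markers, all 4 lower, summed to 5760 to 6208 against 1926 to 2160 CPM. Slc34a1, the most abundant of them in control kidneys, fell from a mean of 71858 to 15391 normalized counts (0.21-fold). Slc5a2 fell further (0.034-fold), while Lrp2 and Cubn fell less (0.72-fold and 0.73-fold). Distal nephron (4 genes, 7507 to 8485 against 5806 to 9520 CPM), podocyte (4 genes, 634 to 691 against 525 to 741 CPM) and stromal markers (6 genes, 982 to 1044 against 917 to 1260 CPM) overlapped between the groups, but single genes of these lists differed. Of the stromal genes 3 were higher (Pdgfrb, Pdgfra and Dcn) and 2 lower (Col1a1 and Lum), of the distal genes Aqp2 was higher and Slc12a3 lower, and of the podocyte genes Wt1 was higher. The renal markers were present in all 6 kidneys. Of 5 erythroid markers 4 had 0 counts in all kidneys, and the list summed to 18.8 to 42.6 against 5.17 to 23.1 CPM. The part of the lymphocyte, endothelial and tubular levels in the fall of the interferon-induced genes was not tested.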

How the data were processed

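RNA of 6 kidneys was sequenced (TruSeq, single-end reads of 100 bases). Per the labels and methods, the authors processed reads with CASAVA 1.8.2 and Trimmomatic, aligned them to mm9 with TopHat2 2.0.11 and ran HTSeq on uniquely mapped reads. Raw counts per gene were deposited, and unique mapping can lower counts of genes with near-identical copies. Annotation, counting mode and strand are not given in the sources used here. Genes were filtered with filterByExpr, scaled by TMM and tested with edgeR 4.0.16 (quasi-likelihood, Benjamini-Hochberg, R 4.3.3), FeD against control, without covariates. Normalized counts are counts divided by the effective (TMM-scaled) library size and multiplied by the mean library size of the filtered counts. Marker sums in CPM and per-length values used the same effective size. The common coefficient of variation was 0.128, and floors and depth cover counting error only. In simulated counts for this comparison (15293 genes) edgeR recovered 200 of 200 changed genes with 15 false calls. All changed genes had the same large change (median fitted log2 fold change 1.98) and every gene the common dispersion. Smaller changes and genes of higher spread were not simulated, so that recovery of such genes is not known. Gene positions and exon lengths came from GENCODE vM1 (mm9), and promoters from RefSeq. Ratios within a kidney used raw counts and the exact permutation test. Replicate pairs all differed beyond sampling noise (chi-square per degree of freedom 3.86 to 32.0). Alternatives were other scalings, other filters, DESeq2 1.42.0, limma-voom (limma 3.58.1), a replicate block, leaving out each kidney and, added after seeing the data, sex as a term (Xist above or below 1000 counts). Members and lists were chosen with earlier results of these data known. All members are accounted for, with full values for those at an adjusted P under 0.05. Pathway genes named are, per role and direction, the 3 largest changes past that threshold, of which 1 gene is not reported here.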

Additional observations from a re-analysis of the deposited data

How the results depend on the processing

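The number of higher members fell from 7 to 4, 4 and 3 without control 1, control 2 and control 3, and ranged from 3 to 8 when 1 kidney was left out. The numbers of lower members and the pathway counts, stayed within 1.5 times. Among the members, directions reversed only for those that had not passed, on the log2 scale: Ddx58 to -0.00623 with the replicate block, and otherwise when 1 kidney was left out, where Ifnar1 ranged from -0.082 to 0.0031 (higher without FeD 1), Tyk2 from -0.017 (without control 3) to 0.089, Ifih1 from -0.043 (without control 3) to 0.32, and Ddx58 from -0.16 (without FeD 3; -0.00523 without control 2) to 0.17. The cause was not tested. Of 31 member calls, DESeq2 and the fit with no filter on low counts each lost Mx2, limma-voom lost Irf4, Ifit1 and Mx2, and leaving out a kidney lost 2 to 9. Requiring 10 counts in every sample removed 2 called members, Ifitm7 and Oas1a, from the fit. Kidneys with the same number did not deviate together (correlations -0.20, 0.00055 and -0.05), so the numbers do not pair them. The replicate block lost Jak1 and gained Iigp1. Of the 20 pathway genes that the naming rule picks, 7 lost their call under some alternative and 0 reversed. Depth limits Mx1, Oas1a, Socs1 and the ligands.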
